A study of Homo sapiens with 6 samples.

Results

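The nuclear-coded genes of oxidative phosphorylation were followed in 3 human lung cancer lines and their drug-resistant sublines. Members were the protein-coding genes whose names start with NDUFA, NDUFB, NDUFC, NDUFS, NDUFV, UQCR, COX4, COX5, COX6, COX7, COX8 or ATP5, with SDHA, SDHB, SDHC, SDHD and CYC1 added. Of 21463 genes in the deposited tables, 100 met the name rule, and 91 of them reached 10 CPM (exon reads per 1e+06 reads of the TMM-adjusted library size) in at least 1 library. By complex, 45 belong to complex I, 4 to complex II, 9 to complex III, 13 to complex IV and 20 to complex V. Of the 91 members, 78 encode subunits of the 5 complexes. The other 13 are the assembly factors NDUFAF1 to NDUFAF8, COX7A2L, COX7B2, ATP5IF1, ATP5S and the read-through gene ATP5MF-PTCD1, which the name rule also takes. NDUFA4 carries a complex I name and is counted here with complex IV, to which its protein is now assigned.

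The libraries came from established EGFR-mutant lines of non-small cell lung cancer, 1 parental and 1 resistant library per line. The EGFR mutation of HCC827 and PC9 is given as E19Del, and gefitinib was used to select the sublines HCC827-GR and PC9-GR. H1975 carries L858R and T790M, and its subline H1975-OR was selected with osimertinib. Both drugs inhibit the EGFR kinase. The parental cells were not treated. Selection ran for 90 days at rising concentration, and the labels give a range of half-maximal inhibitory concentrations of 0.016 to 0.07 µM before and 4.288 to 12.485 µM after it. All 6 cultures were kept in RPMI-1640 medium with serum. The labels do not say whether a subline is 1 clone or a pool, nor whether the drug was present when RNA was taken.

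The respiratory chain passes electrons from NADH (complex I) and succinate (complex II) through complex III and cytochrome c to oxygen at complex IV, and complexes I, III and IV pump protons across the inner mitochondrial membrane. Complex V, the ATP synthase, lets the protons back and makes ATP. Most subunits are encoded in the nucleus and imported, while a small core set, all of it in complexes I, III, IV and V, is encoded in mitochondrial DNA. Transcription factors known to bind promoters of nuclear-coded subunits include NRF1, ETS factors such as GABPA, ESRRA and YY1.

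Promoter windows were read from RefSeq (build GRCh38.p14), 300 bases for each start site, from 250 before to 50 after it. Of the 91 members, 75 were matched by symbol. The NRF1 motif, searched as GCGCANGCG on both strands, lay in 23 of the 75 windows (30.7%), against 7.52% of 35116 promoter windows of the same length. The ETS motif CCGGAAGT lay in 10 (13.3%, against 4.14%), the YY1 motif AAGATGGCG in 9 (12.0%, against 1.75%) and the ESRRA motif TCAAGGTCA in 1, that of SDHD (1.33%, against 0.353%), also on both strands. Each matched member gave 1 window, while the 35116 windows hold all start sites with no filter on expression. The shares thus come from unlike sets. Matches before the RefSeq start site are shown with 10 bases on each side, 5′ to 3′ on the gene's strand, with the match in capitals. Windows are shown for NRF1 and ETS matches in members that the naming rule picked, so that their levels below can be set beside the letters. Matches in other members named below (such as UQCRFS1 for NRF1, NDUFS1 and COX5B for ETS) and the YY1 matches, among them SDHB, UQCRC1 and NDUFAF8, are not shown. The NRF1 and ETS matches of SDHD do not overlap.
NDUFA5, NRF1 motif, chr7:123557958-123557986, minus strand: tatgcccatcGCGCATGCGtcaatttttc
SDHD, NRF1 motif, chr11:112086753-112086781, plus strand: agctgtgtttGCGCATGCGcgacgggtgt
SDHA, NRF1 motif, chr5:218144-218172, plus strand: ggtccgctttGCGCAGGCGcggcgccccc
UQCRC1, NRF1 motif, chr3:48609674-48609702, minus strand: tacggtactgCGCCTGCGCcgcgaccgcc
COX6A1, NRF1 motif, chr12:120437884-120437912, plus strand: ggagggcacaCGCATGCGCacgaaggaaa
SDHD, ETS motif, chr11:112086785-112086812, plus strand: ccgcctctcgACTTCCGGttcacccagc
UQCRH, ETS motif, chr1:46303641-46303668, plus strand: agtgtgccgcACTTCCGGccagatcgcc
COX8A, ETS motif, chr11:63974591-63974618, plus strand: cagctccagaACTTCCGGccagcgcagc
ATP5MD, ETS motif, chr10:103396618-103396645, minus strand: tgcaattcttCCGGAAGTgtgggcgggc
A match describes letters and is not a shown binding site. Members with an NRF1 match had median log2 ratios of resistant over parental CPM of −0.30 (HCC827), −0.04 (PC9) and 0.16 (H1975), and members matched to a promoter without one had −0.32, 0.02 and 0.10. For the ETS motif the medians were −0.35, 0.005 and 0.03 with a match and −0.30, −0.01 and 0.13 without one, so in H1975 the difference had the opposite sign to that for NRF1. For the YY1 motif they were −0.22, −0.06 and 0.12 with a match and −0.30, 0.01 and 0.13 without one. None of these differences was tested.

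Libraries held 21222102 to 29366085 exon reads, of which 90.8% to 91.7% mapped uniquely. The 2 libraries of a line were the parental and the resistant one, so a ratio within a line has no replicate and no test. Its 95% counting interval (exact binomial) had a median half-width of 0.09 and a largest half-width of 0.31 on the log2 scale, which covers counting error only. Over the lines, edgeR's quasi-likelihood test used the 3 lines as replicates, which are different lines under 2 different drugs. Its p-values and standard errors rest on a variance estimated in part from all genes, not only on a gene's spread over the lines. The log2 ratios of UQCRC1, for example, had an SD of 0.0192 over the lines, and its edgeR standard error was 0.16. Markers of lung epithelium reached 10 CPM in at least 1 library for 8 of 9 genes. Their sum in the parental and then the resistant library was 13750 and 5354 CPM in HCC827, 8681 and 7547 CPM in PC9, and 2764 and 1734 CPM in H1975. Of the defining alveolar markers, NKX2-1, NAPSA and SFTPB were below 10 CPM in both PC9 and both H1975 libraries. In HCC827 SFTPB was below 10 CPM in both libraries as well. NAPSA was at 288 and 28.8 CPM there and NKX2-1 at 140 and 121 CPM. Summed fibroblast markers ranged from 14.8 to 213 CPM, leukocyte markers from 0.918 to 12.3 CPM and endothelial markers from 1.05 to 20.2 CPM. CDH1, the epithelial cadherin, was at 465 and 22.1 CPM in HCC827 and at 22.3 and 0.131 CPM in H1975. The part of this change of epithelial genes in the results below was not tested.

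No change of the members that the 3 lines share passed a test, and the pairs differed in their main direction. In HCC827 most were lower in the resistant library, in PC9 they were evenly split, and in H1975 most were slightly higher. No member passed the edgeR test over the 3 lines. Of 90 members tested, 0 had an adjusted p under 0.05 (background 0.0% of 13541 genes) and 0 had an unadjusted p under 0.05 (background 3.71%, 502 genes). DESeq2 called 58 of the genes (0.428%) and 0 members, and limma-voom called 0 genes. The smallest p of a member was 0.119, for NDUFA5 (adjusted p = 0.903 in edgeR). The median standard error of a member's fitted log2 fold change was 0.21, and the median fitted value was −0.10.

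**Figure D1:**
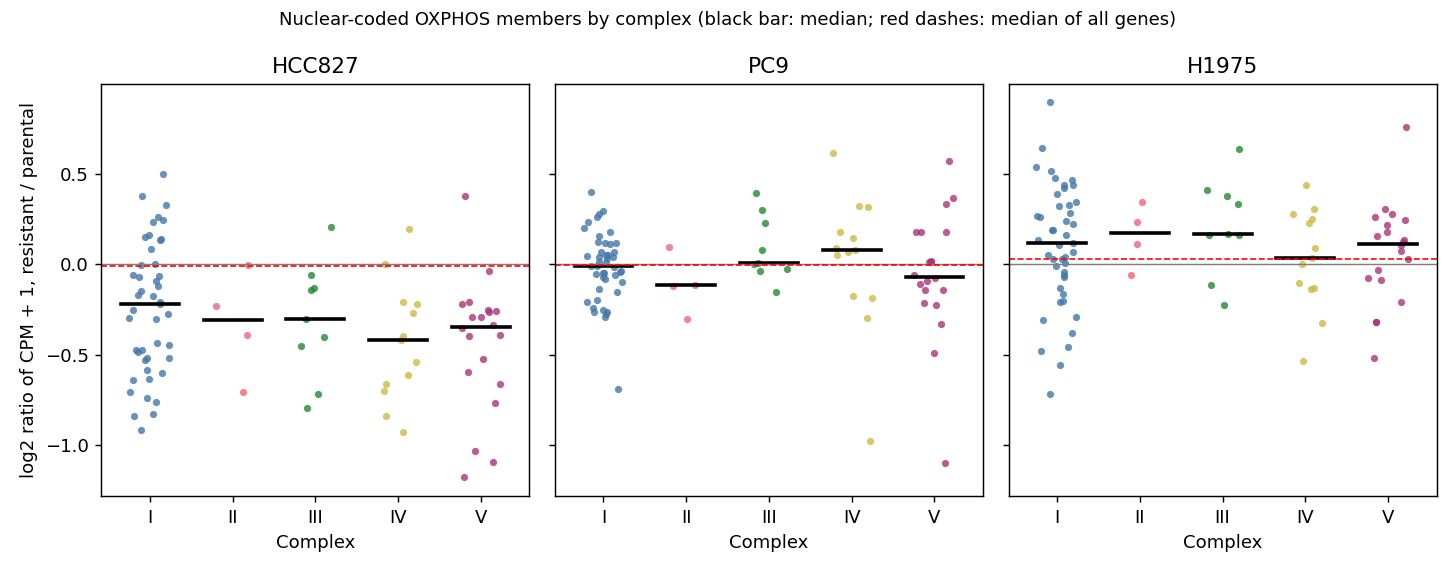
Each point is 1 member, placed by its complex, with the log2 ratio of resistant over parental TMM-scaled CPM (1 CPM added) on the vertical axis, in 1 panel per line. Black bars are the medians of a complex and red dashes the median of all protein-coding genes with the same minimum. In HCC827 all 5 complex medians lie below the all-gene median of −0.01, from −0.22 (complex I) to −0.42 (complex IV).

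In the HCC827 pair, 75 of the 91 members (82.4%) were lower in the resistant library, against 50.8% of 11475 protein-coding genes that reached the same 10 CPM. The median log2 ratio was −0.30 (interquartile range −0.59 to −0.08), and the median over all those genes was −0.01. At 1.5-fold, 24 members (26.4%) were lower (background 18.1%) and 0 were higher (background 18.8%). At 2-fold, 3 members were lower (background 8.12%), ATP5MC3, ATP5MF and ATP5MF-PTCD1, and 0 were higher (background 10.2%). ATP5MF-PTCD1 shares its reads with ATP5MF and reached 10 CPM only in parental libraries, so it met the minimum only through the group where it was higher. Without it the counts in this pair were 74 members lower, 23 of them by 1.5-fold and 2 by 2-fold. By library size alone 5 members were 2-fold lower, and among members with at least 95% unique reads 1 was. The members spread less than other genes, from −1.18 to 0.50 with an SD of 0.36 against 1.08 over all genes. Genes with an exon length at or below the members' median of 1839 bases (n = 1223) had a median of −0.23 in this pair, and the all-gene median length was 4179 bases. In this pair length and ratio had a rank correlation of 0.184 over all 11475 genes and of 0.037 within the members (n = 91). The members are mostly short, so the value within them cannot decide the part of length in their median, which was not tested.

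In the PC9 pair the median log2 ratio was 0.01, with 44 members lower (48.4%, background 50.6%). At 1.5-fold, COX7B2, NDUFB10 and ATP5F1A were lower (3.3% of members, background 6.27%) and COX6B1 was higher (1.1%, background 7.17%). ATP5F1A was the only member at least 2-fold lower (background 1.86%), and 0 were 2-fold higher (background 2.71%).

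In the H1975 pair the median log2 ratio was 0.12, against 0.03 over all genes. It was 0.05 with libraries scaled by size alone and 0.02 on the deposited TPM. Genes up to the members' median exon length had a median of 0.08 in this pair. Length and ratio had a rank correlation of −0.108 over all genes and of −0.004 within the members. The part of length in the members' median was not tested. Lower members numbered 30 (33.0%, background 45.9%). At 1.5-fold, NDUFA5 was lower (1.1% of members, background 9.88%), and UQCRH, ATP5MC3, NDUFA10 and NDUFAF8 were higher (4.4%, background 6.81%). At 2-fold there were 0 members in either direction (background 4.07% lower and 1.81% higher). With libraries scaled by size alone, 4 members were lower and 3 higher at 1.5-fold. The 1.5-fold shares in PC9 and H1975 did not exceed their backgrounds in either direction.

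The shares of members with 1 direction in all 3 pairs did not exceed the background. Lower in all 3 were 10 members (11.0%, background 13.6%): UQCRC1, NDUFC1, ATP5MF-PTCD1, NDUFA5, NDUFB6, SDHD, NDUFAB1, NDUFV2, NDUFA13 and NDUFA3. Without ATP5MF-PTCD1 there were 9. Higher in all 3 were 7 (7.69%, background 14.3%): COX7A2, NDUFAF4, NDUFA12, UQCRC2, NDUFA11, NDUFAF5 and NDUFB11. Of those lower, only UQCRC1 and NDUFV2 had counting intervals that excluded 0 in all 3 pairs, and of those higher, no gene did. For the rest at least 1 sign lay within counting error. With the deposited TPM the split was 16 lower and 3 higher. At least 1.5-fold lower in 1 line and 1.5-fold higher in another were 2 members, ATP5MC3 and NDUFAF8 (2.2%, background 6.96%). At 1.5-fold in all 3 pairs there were 0 members in either direction (background 0.401% lower and 0.436% higher). Across the 91 members, the log2 ratios of 2 lines had a Pearson r of −0.109 (HCC827 and PC9), −0.17 (HCC827 and H1975) and −0.026 (PC9 and H1975). Over all 11475 genes the same r was 0.178, 0.109 and 0.02. These correlations are across genes, which are not independent replicates.

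The summed level in CPM gives the same order of the lines. The 78 subunits together held 12140 CPM in parental and 9924 CPM in resistant HCC827, a change of −18.2%. The sums were 11390 and 11290 CPM in PC9 and 7918 and 8327 CPM in H1975, the last a change of 5.17%. H1975 had the lowest sums in both states. On the deposited TPM scale, which is per exon length, HCC827 changed by −23.9%, PC9 by −1.3% and H1975 by −1.44%. The direction in H1975 thus turned with the unit, and so did the order of PC9 and H1975. In bulk RNA, fewer transcripts per cell and a changed mix of cells cannot be told apart.

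**Figure D2:**
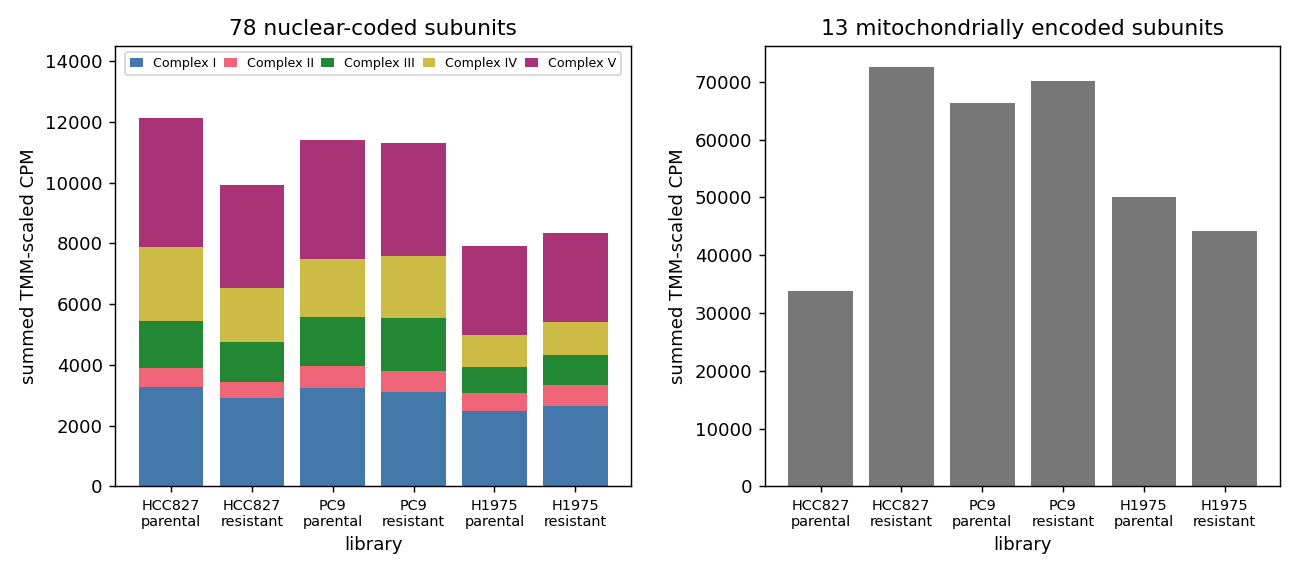
Stacked bars (left) give the summed TMM-scaled CPM of the 78 nuclear-coded subunits by complex in each of the 6 libraries, and grey bars (right) the sum of the 13 mitochondrially encoded subunits on the same unit. The nuclear sum is 12140 CPM in parental and 9924 CPM in resistant HCC827, while the mitochondrial sum there is 33890 and 72590 CPM.

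The mitochondrially encoded partners of the same complexes went the other way in HCC827. All 13 were higher in the resistant HCC827 library, with a median log2 ratio of 1.11, against 0.10 in PC9 and −0.08 in H1975. Of all 13541 genes edgeR called 0 over the lines, these 13 included. Their summed level was 33890 CPM in parental and 72590 CPM in resistant HCC827. The ratio of the mitochondrial to the nuclear sum was 2.79 in parental HCC827, 7.32 in resistant HCC827, 5.83 and 6.22 in PC9, and 6.32 and 5.31 in H1975. Parental HCC827 had the lowest ratio of the 6 libraries and resistant HCC827 the highest. Within complex IV the nuclear sum went from 2453 to 1802 CPM in HCC827 and the mitochondrial sum from 16820 to 38790 CPM. MT-ATP6, the proton channel subunit of complex V, stood at 1327 and 4521 CPM in HCC827, and MT-ND1 of complex I at 2269 and 2570 CPM. The kit used enriches polyadenylated RNA, and its part in the mitochondrial counts was not tested. With TMM factors computed without the mitochondrial genes, the HCC827 median of the complex I members was −0.217, beside −0.219 with them. For complex V it was −0.343, beside −0.345. The members' median less that of all genes was −0.29, beside −0.28. That difference cannot show an effect of scaling, since a factor moves all genes of a pair nearly alike.

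Complex I takes electrons from NADH and hands them to ubiquinone. Its 37 measured subunits had median log2 ratios of −0.25 (HCC827), −0.02 (PC9) and 0.12 (H1975). Of them 29, 21 and 12 were lower (78.4%, 56.8% and 32.4%, against backgrounds of 50.8%, 50.6% and 45.9%). The 7 core subunits, which include those that hold the flavin and the iron-sulfur clusters, were all lower in PC9 by a small amount (median −0.20, range −0.26 to −0.05). For NDUFS1 and NDUFV1 the counting interval in PC9 included 0. The 30 accessory subunits had a median of 0.01 there. In HCC827 the core median was −0.17 and in H1975 0.12.

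NDUFS1, the largest iron-sulfur core subunit, stood at 141 and 90.4 CPM in HCC827, 129 and 125 CPM in PC9, and 148 and 216 CPM in H1975 (parental, then resistant). The parental levels were close, and the resistant libraries lay below them in HCC827 and above them in H1975. NDUFV1, which binds NADH and the flavin, was 268 and 348 CPM in HCC827, 208 and 201 CPM in PC9, and 328 and 285 CPM in H1975. It was among the 3 highest ratios of HCC827, at 0.38.

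NDUFA5 (chr7:123536997-123558255 on hg38), an accessory subunit of the matrix arm, was 44.8 and 32.6 CPM in HCC827, 40.1 and 39.9 CPM in PC9, and 92.4 and 55.9 CPM in H1975. It was lower in all 3 pairs, by little in PC9, and H1975 held more of it than the other lines in both states. Its fitted log2 fold change was −0.40 ± 0.21 (SE, n = 3 lines, edgeR adjusted p = 0.903). NDUFC1, a small membrane-arm subunit, was 49.0 and 26.9 CPM in HCC827, 48.8 and 46.4 CPM in PC9, and 22.6 and 21.9 CPM in H1975. Its difference was carried by HCC827, where the log2 ratio was −0.84.

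NDUFB11, a membrane-arm subunit encoded on the X chromosome, had the highest ratio of all members in HCC827. Its level was 113 and 160 CPM there, 35.1 and 36.8 CPM in PC9, and 60.5 and 72.8 CPM in H1975. The fitted value was 0.28 ± 0.18 (SE, n = 3 lines, edgeR adjusted p = 0.903). NDUFB10, another membrane-arm subunit, was 78.6 and 87.2 CPM in HCC827, 74.2 and 45.6 CPM in PC9, and 45.6 and 47.9 CPM in H1975, so that only the PC9 pair differed by 1.5-fold. NDUFB5 was 85.4 and 73.2 CPM in HCC827, 65.6 and 77.4 CPM in PC9, and 79.3 and 53.5 CPM in H1975, with one of the 3 lowest ratios of that line.

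NDUFA10, an accessory subunit, showed opposite differences. It was 145 and 101 CPM in HCC827, 144 and 148 CPM in PC9, and 41.3 and 77.7 CPM in H1975. The H1975 log2 ratio of 0.90 was the highest of any member in any line, yet both H1975 libraries stayed below the other 4.

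The 8 assembly factors of complex I that carry the NDUFAF name help build the complex and are not part of it. Their medians were 0.02 for HCC827, 0.08 for PC9 and 0.18 for H1975. NDUFAF4 was higher in all 3 pairs, at 13.2 and 14.6 CPM in HCC827, 34.4 and 37.5 CPM in PC9, and 11.7 and 16.2 CPM in H1975. Its counting interval included 0 in HCC827 and in PC9. NDUFAF3 was 57.2 and 64.0 CPM in HCC827, 24.2 and 32.2 CPM in PC9, and 21.7 and 15.5 CPM in H1975. It had one of the 3 highest ratios of PC9, and its H1975 ratio had the opposite sign. NDUFAF8 was 19.5 and 11.1 CPM in HCC827, 27.7 and 30.2 CPM in PC9, and 5.46 and 9.10 CPM in H1975.

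Complex II, succinate dehydrogenase, is the one complex with no mitochondrially encoded subunit and also works in the tricarboxylic acid cycle. All 4 genes were lower in resistant HCC827 (SDHC by almost nothing), 3 of 4 in PC9 and 1 of 4 in H1975. Over all genes the shares lower were 50.8%, 50.6% and 45.9%, and over all members 82.4%, 48.4% and 33.0%. SDHA, the flavoprotein, was 238 and 203 CPM in HCC827, 403 and 371 CPM in PC9, and 214 and 273 CPM in H1975. SDHB, the iron-sulfur subunit, was 105 and 64.1 CPM in HCC827, 138 and 127 CPM in PC9, and 62.3 and 73.5 CPM in H1975. For both genes H1975 moved against the other lines.

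The membrane anchors were SDHC and SDHD. SDHC was 167.3 and 167.1 CPM in HCC827, 107 and 114 CPM in PC9, and 204 and 221 CPM in H1975. SDHD was 119 and 90.6 CPM in HCC827, 85.9 and 69.3 CPM in PC9, and 103 and 98.5 CPM in H1975. SDHD, whose promoter holds the NRF1, ETS and ESRRA motifs, was lower in every pair, but its counting interval included 0 in H1975. The fitted value of SDHD was −0.25 ± 0.17 (SE, n = 3 lines, edgeR adjusted p = 0.903). Only 24.0% of its reads mapped uniquely (78.3% for SDHC, 100% for the other two), so its level is uncertain.

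Complex III passes electrons from ubiquinol to cytochrome c. CYC1, the cytochrome c1 subunit that carries a heme, was 150 and 85.9 CPM in HCC827, 311 and 305 CPM in PC9, and 57.2 and 74.5 CPM in H1975. PC9 held the most in both states. UQCRFS1, the Rieske iron-sulfur protein, had a like pattern, at −0.72 (HCC827), −0.04 (PC9) and 0.41 (H1975) on the log2 ratio scale, beside −0.80, −0.03 and 0.38 for CYC1.

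The core proteins UQCRC1 and UQCRC2, which form the matrix side of the complex, went opposite ways, by almost nothing for UQCRC2 in PC9. UQCRC1 was 231 and 211 CPM in HCC827, 169 and 152 CPM in PC9, and 121 and 112 CPM in H1975. UQCRC2 was 144 and 167 CPM in HCC827, 211.5 and 212.3 CPM in PC9, and 179 and 199.9 CPM in H1975. UQCRC1 had nearly equal log2 ratios in the lines (−0.13, −0.15 and −0.11), and its fitted value was −0.13 ± 0.16 (SE, n = 3 lines, edgeR adjusted p = 0.916). UQCRC2 had 0.13 ± 0.17 (adjusted p = 0.926 in edgeR).

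UQCRH, the hinge protein that binds cytochrome c1, was 356 and 342 CPM in HCC827, 330 and 387 CPM in PC9, and 83.9 and 131 CPM in H1975. Both H1975 libraries lay below the other 4, and the H1975 ratio was past 1.5-fold. Its close relative UQCRHL reached at most 1.38 CPM, under the minimum.

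Complex IV is cytochrome c oxidase. Its 11 measured nuclear-coded subunits had a median log2 ratio of −0.54 in HCC827, with 10 of 11 lower (90.9%, background 50.8%). The 13 members counted with the complex had −0.42. That was the lowest of the 5 complex medians, but with no minimum CPM it was −0.23, above complexes II, III and V. That setting adds complex IV isoform rows at under 1 CPM in HCC827, among them COX4I2 and COX6A2 with 0 reads. The added 1 CPM holds the ratios of such rows toward 0. Among members with at least 95% unique reads complex II was lower, at −0.47. The subunit median was 0.08 in PC9 and 0.09 in H1975. Over the 13 members the H1975 value was 0.03, and on the deposited TPM it was −0.0078, so no direction is given for it. COX7B was 219 and 115 CPM in HCC827, 176 and 185 CPM in PC9, and 111 and 150 CPM in H1975. COX5B was 207 and 115 CPM in HCC827, 169 and 187 CPM in PC9, and 72.4 and 87.9 CPM in H1975. COX7C was 341 and 223 CPM in HCC827, 210 and 224 CPM in PC9, and 134 and 122 CPM in H1975. For these subunits, picked after their values were seen, parental HCC827 held the highest level of the 6 libraries. Resistant HCC827 lay within the range of the PC9 and H1975 libraries. COX5A did not share this, at 107 and 65.1 CPM in HCC827, 130 and 115 CPM in PC9, and 73.6 and 87.6 CPM in H1975. Its parental HCC827 level was below both PC9 libraries, and resistant HCC827 was the lowest of the 6.

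COX8A, a small subunit, was 235 and 148 CPM in HCC827, 147 and 129 CPM in PC9, and 90.6 and 92.8 CPM in H1975. Its fitted value was −0.27 ± 0.21 (SE, n = 3 lines, edgeR adjusted p = 0.903), and 54.0% of its reads mapped uniquely. COX7A2 was the one complex IV member higher in all 3 pairs, at 123 and 141 CPM in HCC827, 113 and 118 CPM in PC9, and 57.5 and 61.3 CPM in H1975. Its counting interval included 0 in PC9 and in H1975. COX6B1, which faces the intermembrane space, was 152 and 131 CPM in HCC827, 155 and 238 CPM in PC9, and 50.9 and 63.2 CPM in H1975. Resistant PC9 was the highest of the 6 libraries, with a log2 ratio of 0.61. NDUFA4 was 208 and 155 CPM in HCC827, 173 and 216 CPM in PC9, and 172 and 118 CPM in H1975, so that PC9 stood against the other lines.

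Several complex IV subunits have tissue-specific isoforms. COX4I1, the ubiquitous isoform of its subunit, was 429 and 367 CPM in HCC827, 262 and 213 CPM in PC9, and 150.3 and 176 CPM in H1975. COX4I2, the lung and hypoxia isoform, and COX6A2, the heart and muscle isoform, had 0 reads in all 6 libraries, which allows 0.0982 to 0.145 CPM (3 counts per library). COX6A1, the ubiquitous partner, was 312 and 258 CPM in HCC827, 207 and 215 CPM in PC9, and 81.2 and 75.5 CPM in H1975. COX7A1 and NDUFA4L2 stayed under 1 CPM. COX6B2, the testis isoform of COX6B1, was 3.58 and 6.23 CPM in PC9 and under 1 CPM elsewhere. COX7B2, the testis isoform of COX7B, had 28.8 and 14.1 CPM in PC9 and 0 reads in the other 4 libraries. It met the minimum through PC9 alone and was the 1 member not kept for the edgeR test. The rows nearest the minimum were NDUFAF1 (at most 22.3 CPM) and ATP5MF-PTCD1 (at most 13.7 CPM) above it, and COX6B2 and NDUFC2-KCTD14 (at most 3.36 CPM) below it.

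**Figure D3:**
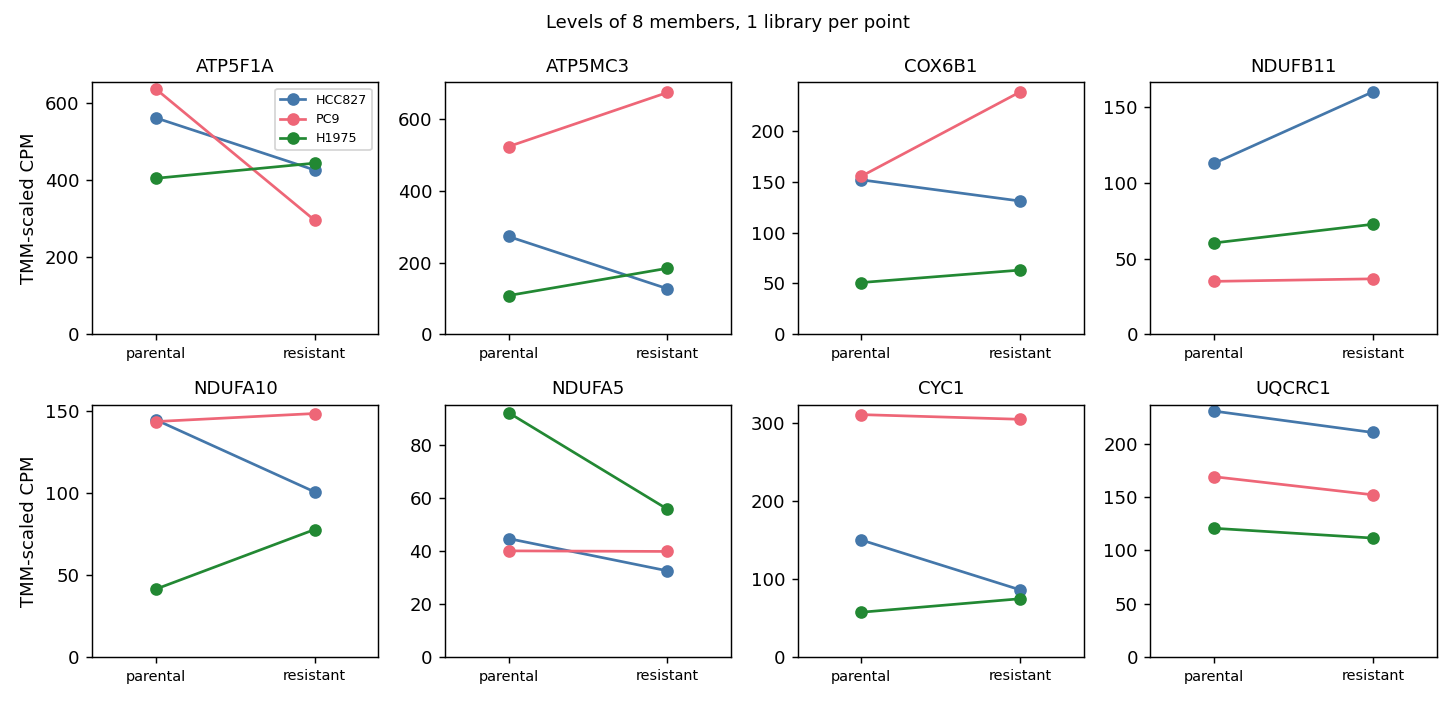
Each panel shows 1 member, with TMM-scaled CPM on a vertical axis that starts at 0 and a line that joins the parental and resistant library of each cell line. ATP5F1A is lower in resistant PC9 (636 to 296 CPM), ATP5MC3 crosses between HCC827 and H1975, and UQCRC1 has nearly parallel lines.

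Complex V makes ATP with a rotating membrane ring, a catalytic F1 head and a peripheral stalk. In HCC827 all 5 F1 subunits were lower (median −0.40), as were all 4 stalk subunits (median −0.26) and all 5 small membrane subunits (median −0.35). Of the 3 c ring genes 2 were lower. In that pair 82.4% of all members and 50.8% of all genes were lower. The medians of head, stalk and small membrane subunits were 0.01, −0.03 and −0.14 in PC9, and 0.12, 0.16 and 0.16 in H1975.

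ATP5F1A (chr18:46080248-46104334 on hg38), the alpha subunit of the head, was 561 and 426 CPM in HCC827, 636 and 296 CPM in PC9, and 404 and 443 CPM in H1975. Resistant PC9 had the lowest level of the 6 libraries, and parental PC9 the highest. Its log2 ratio in PC9 was −1.10, and the fitted value over the lines was −0.46 ± 0.30 (SE, n = 3 lines, edgeR adjusted p = 0.903). ATP5F1B, the catalytic beta subunit that pairs with it, was 1047 and 855 CPM in HCC827, 899.9 and 906 CPM in PC9, and 1012 and 811 CPM in H1975. The alpha and beta genes thus went apart in PC9, where beta had a log2 ratio of 0.01. Per exon length ATP5F1B was the most abundant member in 5 of the 6 libraries (1104 to 1790 TPM), and UQCRH led in resistant PC9 with 1263 against 1235 TPM.

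The c ring is built from 1 mature protein that is encoded by ATP5MC1, ATP5MC2 and ATP5MC3, and these genes diverged. ATP5MC3 was 273 and 128 CPM in HCC827, 524 and 675 CPM in PC9, and 109 and 185 CPM in H1975. Its log2 ratios were −1.09, 0.36 and 0.76. ATP5MC2 was 259 and 337 CPM in HCC827, 138 and 109.6 CPM in PC9, and 132 and 129 CPM in H1975, with log2 ratios of 0.38, −0.33 and −0.03. In HCC827 and in PC9 these 2 genes moved in opposite directions, and in HCC827 ATP5MC2 was among the 3 highest ratios while ATP5MC3 was among the 3 lowest. ATP5MC1 was 96.6 and 73.4 CPM in HCC827, 53.0 and 49.6 CPM in PC9, and 41.4 and 44.6 CPM in H1975. ATP5MC3 had the largest standard error of the members (fitted value 0.02 ± 0.42, SE, n = 3 lines, edgeR adjusted p = 0.995).

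ATP5MF, the f subunit in the membrane, had the lowest ratio of all members in HCC827 (log2 −1.18). It was 190.4 and 83.5 CPM there, 124 and 140 CPM in PC9, and 87.3 and 82.9 CPM in H1975. The read-through gene ATP5MF-PTCD1 shares its reads (1.07% unique), so its values of 12.2 and 5.46 CPM in HCC827 are not a separate measurement. ATP5MD, a small membrane subunit, was 73.6 and 63.4 CPM in HCC827, 52.8 and 78.9 CPM in PC9, and 77.4 and 79.0 CPM in H1975. ATP5PB, the b subunit of the stalk, was 317 and 251 CPM in HCC827, 269 and 304 CPM in PC9, and 155 and 191 CPM in H1975. For both, HCC827 was lower and the other pairs higher. ATP5IF1, the inhibitor of the enzyme's reverse reaction, was at −0.66 (HCC827), 0.18 (PC9) and −0.09 (H1975) on that scale.

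The lines differed from each other by more than most members differed with resistance, as they did for most other genes. The median range of a member over the 3 parental libraries was 0.98 on the log2 scale, against 0.45 for its largest absolute ratio, and in 76 of 91 members (83.5%, background 76.5%) the parental range was the larger. Both H1975 libraries lay below the other 4 for 33 members (36.3%, background 21.1%) and above them for 5 (5.49%, background 21.7%). Both HCC827 libraries lay above the other 4 for 26 members (28.6%, background 17.7%) and below them for 4 (4.4%, background 16.3%). For PC9 the counts were 23 above (25.3%, background 20.1%) and 12 below (13.2%, background 20.6%). These counts are on CPM, and the place of H1975 depends on the unit. On the deposited TPM, the median over the 78 subunits was 153 and 167 in H1975 (parental, then resistant). It was 183 and 137 in HCC827 and 156 and 148 in PC9, so resistant H1975 was above the other resistant libraries. Per length, the median subunit of complex I stood at 100.1 to 121 TPM across the libraries, and that of complex IV at 201 to 407 TPM, with its highest value in parental HCC827.

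Members were also set beside the 20 nearest expressed protein-coding genes on their chromosome. Across the 91 members, the ratio of a member and the median ratio of its neighbours had a Pearson r of 0.575 (HCC827), 0.596 (PC9) and 0.693 (H1975). Over all 11462 genes with such neighbours r was 0.21, 0.346 and 0.361. By rank correlation the gap was smaller, with 0.544, 0.5 and 0.697 for the members and 0.289, 0.339 and 0.454 over all those genes. The points share libraries and, for nearby members, neighbours. In HCC827, 74 of 91 members lay below their neighbours (81.3%, background 50.4%), with a median difference of −0.25. In PC9 it was 47 (51.6%, background 50.7%) and −0.01, and in H1975 32 (35.2%, background 50.5%) and 0.07.

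**Figure D4:**
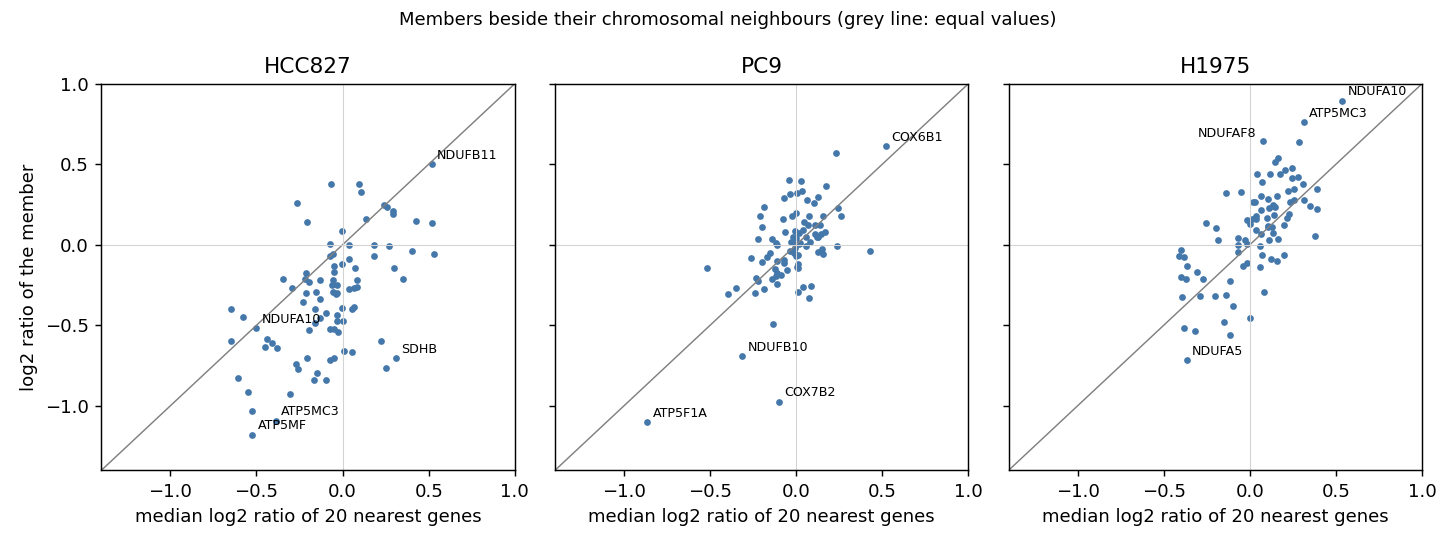
Each point is 1 member, with the median log2 ratio of its 20 nearest expressed genes on the horizontal axis and its own log2 ratio on the vertical axis, and the grey line marks equal values. ATP5F1A in PC9 lies at −0.86 and −1.10, COX6B1 in PC9 at 0.52 and 0.61, and NDUFB11 in HCC827 at 0.52 and 0.50.

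Several of the named differences stood beside like differences of the genes around them. The neighbours of ATP5F1A had a median of −0.86 in PC9, with 19 of 20 lower, and the median of the 161 genes of chromosome 18 was −0.84 there. Around COX6B1 in PC9 the median was 0.52, with 1 of 20 lower, and around NDUFB11 in HCC827 it was 0.52, with 1 of 20 lower. NDUFA10 had neighbours at −0.50 in HCC827 and 0.54 in H1975, on the same sides as its own ratios of −0.52 and 0.90. NDUFA5 had neighbours at −0.58 in HCC827 and −0.37 in H1975. The genes around ATP5MF in HCC827 had a median of −0.52 and those around ATP5MC3 −0.39, and both members lay lower still. Other members stood against their neighbours. SDHB in HCC827 had a ratio of −0.71 where its neighbours had 0.31, and NDUFAF8 had −0.76 where its neighbours had 0.25.

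Intron reads gave a second readout of the same genes, at lower depth. For members with at least 50 intron reads in a pair, the median less that of all genes was −0.21 in HCC827 (80 members), 0.00 in PC9 (74 members) and 0.05 in H1975 (86 members). The exon difference over the same genes was −0.29, 0.01 and 0.08. Reads across exon junctions gave −0.28, 0.06 and 0.05.

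Other genes of the organelle were described by counts and medians from lists of related genes. Since edgeR called 0 of all 13541 genes, it called 0 of any list. The 40 measured assembly factors outside the name rule had median log2 ratios of −0.33 (HCC827), −0.11 (PC9) and 0.04 (H1975). The lowest of them by mean over the lines were SDHAF3, for complex II, with 20.3 and 6.28 CPM in HCC827, and COX17, a copper chaperone, with 35.9 and 21.4 CPM. The highest were UQCC1 of complex III, at 56.1 and 124 CPM in HCC827, and SDHAF1. The 78 genes of the mitochondrial ribosome had medians of −0.36, −0.14 and 0.13, with 66, 65 and 23 of them lower (84.6%, 83.3% and 29.5%, against backgrounds of 50.8%, 50.6% and 45.9%). MRPS17 went from 233 to 39.6 CPM in HCC827 and MRPL19 from 81.4 to 31.5 CPM, while MRPL2 and MRPL18 were the highest by mean. The HCC827 median of the members was −0.30.

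The 18 genes of the tricarboxylic acid cycle had medians of −0.23 (HCC827), −0.19 (PC9) and −0.04 (H1975). MDH2, malate dehydrogenase, was lower in all 3 pairs, at 413 and 207 CPM in HCC827, 322 and 247 CPM in PC9, and 181 and 161 CPM in H1975. PC, pyruvate carboxylase, was 95.4 and 52.3 CPM in H1975, and SUCLA2 and IDH3B were the highest by mean. The 12 carriers had medians of −0.42, −0.05 and 0.14. CYCS, which encodes cytochrome c, was 274 and 158 CPM in HCC827, 439 and 463 CPM in PC9, and 355 and 306 CPM in H1975. DHODH and ETFA, which feed electrons into the ubiquinone pool, were the lowest carriers by mean, and the phosphate carrier SLC25A3 and the ADP/ATP carrier SLC25A6 among the highest.

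Regulators of mitochondrial biogenesis did not share 1 direction, and the 15 of 16 that reached 10 CPM had medians of −0.08, −0.10 and 0.06. PPARGC1A, the coactivator PGC-1alpha, had 1 read in parental and 577 reads in resistant HCC827 (0.0363 and 21.6 CPM), and 0 to 2 reads in the other 4 libraries. It was not kept for the edgeR test. Its relative PPARGC1B was 9.52 and 3.36 CPM in HCC827. ESRRA, the nuclear receptor that these coactivators bind, was 91.3 and 31.1 CPM in HCC827, 84.0 and 78.2 CPM in PC9, and 31.9 and 36.5 CPM in H1975. In HCC827 PPARGC1A was thus higher, and PPARGC1B and ESRRA were lower. NRF1 had log2 ratios of −0.06, −0.28 and 0.21, and TFAM, which packages mitochondrial DNA and starts its transcription, −0.41, −0.43 and −0.07. MYC was 246 and 393 CPM in HCC827, 178 and 137 CPM in PC9, and 273 and 487 CPM in H1975.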

How the data were processed

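The authors deposited, per sample, whole-number read counts per gene (exon, unique exon, intron and junction reads, per the file headers) and TPM, which equalled total exon reads over exon length to within a relative 0.000153. Trimmomatic, Bowtie2 and hg38 appear in the submitters' processing notes. For the counter and annotation release, the name is not given in the sources used here. The kit is stranded, but whether counting used strand is not stated. Libraries were grouped by the labels into 3 parental and 3 resistant.

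Counts were fitted with edgeR 4.0.16 in R 4.3.3 (quasi-likelihood, TMM, filterByExpr with minimum count 10 and minimum total 15, 13541 genes, two-sided, Benjamini-Hochberg over all genes, threshold 0.05). The cell line was a block, since parental and resistant libraries come from the same line, which leaves 2 residual degrees of freedom. Deviations from the mean of each state correlated at 0.607 to 0.841 for same-line libraries and at −0.639 to −0.15 for different lines. Such deviations cancel over the lines of a state, so positive same-line values force negative ones among different lines. The biological coefficient of variation was 38.6%. Ratios within a line used TMM-scaled CPM with 1 CPM added. The script was tested on simulated data.

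Members and lists were chosen with earlier results of these data known. Named members were the 2 highest and 2 lowest by mean ratio in each complex, the 3 highest and 3 lowest in each line, all complex II genes, isoform pairs, the rows nearest 10 CPM, and the 2 highest and 2 lowest of each other list. Further members named as examples (NDUFS1, UQCRFS1, COX7B, COX5B, COX7C, COX5A, ATP5F1B, ATP5MC1, ATP5IF1 and, outside the members, CDH1, CYCS, NRF1 and TFAM) were chosen after their values were seen. SCO2 of the assembly factors was not matched. The promoter motifs were chosen, and the NRF1 and YY1 motifs shortened, after the ratios had been computed; of several start sites the one nearest the deposited gene start was used. Of the members, 12 had under 60% unique reads, and their levels are uncertain. Alternatives were other scalings, filters, added constants, units, read classes, DESeq2 1.42.0, limma-voom 3.58.1, no block, leaving out each line and leaving out ATP5MF-PTCD1.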

Additional observations from a re-analysis of the deposited data

Results flagged for a closer look

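In 2 members (2.2%, background 6.96%), the resistant library was at least 1.5-fold lower in 1 line and at least 1.5-fold higher in another. ATP5MC3, one of the c ring genes, stood at −1.09 (HCC827), 0.36 (PC9) and 0.76 (H1975) on the log2 ratio scale. NDUFAF8, an assembly factor of complex I, stood at −0.76 (HCC827), 0.12 (PC9) and 0.65 (H1975). Each line has 1 library per state, and the difference between lines was not tested.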

How the results depend on the processing

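The count of members called by edgeR over the lines was 0 under every alternative run, leave-one-out included. Without HCC827 ATP5MC3 had an unadjusted p of 0.0468 (edgeR adjusted p = 0.999). DESeq2 called 58 genes, where edgeR called 0. With no replicate block 47 genes had an unadjusted p under 0.05, beside 502 with it, and the smallest p of a member was 0.217. The members' HCC827 median less that of all genes ran from −0.34 to −0.26. Scaling by library size alone moved the all-gene median of HCC827 to −0.11. Members at least 2-fold lower in HCC827 were 5 by library size alone and 1 among those with at least 95% unique reads, and in PC9 2 with TPM and 2 with 0.1 CPM added. Leaving out ATP5MF-PTCD1, an alternative chosen after seeing the data, gave an HCC827 median of −0.30. Members at least 1.5-fold lower in H1975 were 4 by library size alone, 4 by deposited TPM and 2 with no minimum CPM, and those 1.5-fold higher in PC9 were 2 with no minimum. Lower in all 3 lines were 16 and higher 3 with TPM. Signs near 0 turned for SDHA (0.0020 with relative log expression factors, 0.0004 with no filter, 0.0031 with a 10 CPM filter, 0.0020 in DESeq2 and 0.0040 with unique reads). They turned by library size alone for ATP5PB (−0.0075), ATP5MC3 (−0.0324), NDUFV1 (−0.0135), ATP5MC2 (−0.0536), NDUFAF3 (−0.0244) and NDUFAF8 (−0.0420), in limma-voom for ATP5MC2 (−0.0017) and NDUFAF8 (−0.0796), and with no replicate block for NDUFAF8 (−0.0647) and NDUFA10 (−0.0119). The cause was not tested. Leaving out 1 line at a time gave −0.402 to 0.0553 for SDHB, −0.16 to 0.11 for SDHA, −0.40 to 0.17 for CYC1, −0.0653 to 0.237 for ATP5PB, −0.10 to 0.30 for ATP5MD, −0.644 to 0.0469 for ATP5MF, −0.35 to 0.56 for ATP5MC3, −0.13 to 0.18 for NDUFV1, −0.19 to 0.16 for ATP5MC2, −0.32 to 0.10 for NDUFB10, −0.17 to 0.30 for NDUFAF3, −0.406 to 0.0213 for NDUFB5, −0.33 to 0.42 for NDUFAF8, −0.22 to 0.47 for NDUFA10 and −0.26 to 0.10 for NDUFAF1. The sign turned without HCC827 for SDHB, SDHA, CYC1, ATP5MF, NDUFV1, ATP5MC2 and NDUFAF3, without PC9 for SDHA, ATP5PB, ATP5MD, ATP5MC3, NDUFB10, NDUFAF3 and NDUFAF8, and without H1975 for ATP5PB, ATP5MC3, NDUFB5, NDUFAF8, NDUFA10 and NDUFAF1. None of these values passed the test with all lines. The median counting half-width of 0.09 was below the median standard error of 0.21.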
